A study of Mus musculus with 7 samples.

Results

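The 4 libraries described here are the control libraries among the 7 of a series on Kupffer cells, macrophages that live in the liver. They were chosen by their genotype label, Commd10fl/fl, with no Cre allele named. The mice were untreated males of 8 weeks on a C57BL/6 background, described as littermates of mice in which Cre from the Clec4f locus deletes Commd10. These controls therefore carry loxP-flanked Commd10 alleles and are not wild type. Cells were taken by flow cytometry as CD45+ CD11b-low F4/80+ Ly6G- Ly6C- cells bearing TIM4, VSIG4, CLEC2 and CLEC4F, after perfusion and collagenase digestion of the liver. About 10000 cells per sample went into a bulk form of MARS-Seq, which reads the 3′ end of polyadenylated RNA and counts each molecule by a unique molecular identifier (UMI). Sample titles number the controls as 2 sets of 2 libraries, with replicates 1 and 2 in control set 1 and replicates 3 and 4 in control set 2, and the titles leave unsaid in what the sets differ. The labels do not state that the libraries came from separate mice, so their spread may be technical.

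Kupffer cells sit in the liver sinusoids and are bathed in blood from the gut. They take up bacteria, debris and aged red cells, return iron from hemoglobin to the circulation, and secrete complement proteins and apolipoproteins. Their identity is kept by lineage factors such as PU.1 and LXRα. The question asked of these libraries was which genes hold most of the messages of such cells at rest, and how far that order is the same in each library.

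Levels are given as CPM, the counts of a gene per 1000000 counts of its library over the 10550 genes of the table. A 3′ UMI method counts a molecule once whatever its length, so CPM values of different genes were set side by side without division by length. Across the 1312 abundant genes with a transcript model, the Spearman rho of transcript length with log2 mean CPM was -0.23, and the median transcript of the 100 most abundant genes was 1391 bases long. Depth differed between the sets. Control set 1 held 4270240 and 3207144 counts over 10533 and 10473 detected genes, and control set 2 held 230942 and 267553 counts over 8089 and 8231 detected genes. At the depth of the shallowest library the 4 libraries would be expected to show 8873, 8754, 8089 and 8049 genes. A floor of 3 counts was 0.703 and 0.935 CPM in control set 1 and 13 and 11.2 CPM in control set 2, so a gene near or under 13 CPM was hardly measurable in control set 2. The table lists 0 mitochondrially encoded genes. In bulk samples fewer cells of a type and less RNA per cell cannot be told apart.

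Which genes moved with the control set was tested over the whole table with edgeR, as control set 1 minus control set 2 on the log2 scale. Of 8002 genes tested, 564 passed an adjusted p of 0.05 (7.05%), 254 higher in control set 1 (3.17%) and 310 lower (3.87%), and 2165 had an unadjusted p under 0.05. The median difference over all genes tested was 0.14. Beside each gene and group below, the difference, its standard error (SE) and its adjusted p are those of this fit. Counts of calls in a group are to be read against these shares and against 23% of the leading 1000 genes. Sets are said not to overlap where every library of a set lay above or below every library of the other. With so few libraries per set this arises often by chance, and its share over all genes was not counted.

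The 5 Kupffer cell markers were all detected in all 4 libraries, and together they held 2.66% of the counts on average. Clec4f, a C-type lectin found on Kupffer cells, had 14621 and 12944 CPM in control set 1 and 12345 and 9310.3 CPM in control set 2 and stood 4th by its mean of 12305 ± 2217 CPM (SD, n = 4). Cd5l, a secreted scavenger-type protein of tissue macrophages, had 12671 and 10831 CPM in control set 1 and 10656 and 10383 CPM in control set 2 and stood 5th at 11136 ± 1040.4 CPM (SD, n = 4). Both were among the 10 most abundant genes of every library. Control set 1 lay above control set 2 for both without passing the test between the sets, with differences of 0.19 (SE 0.18, adjusted p = 0.52) for Clec4f and 0.00 (SE 0.16, adjusted p = 0.99) for Cd5l. Vsig4, a complement receptor that captures opsonized particles, had 1921 and 2338 CPM in control set 1 and 1130.2 and 1618 CPM in control set 2 (rank 82). Clec1b, which encodes CLEC2, had 907 and 966 CPM in control set 1 and 489 and 404 CPM in control set 2 (rank 217). Timd4, a receptor for phosphatidylserine on dying cells, had 565 and 495 CPM in control set 1 and 736 and 931 CPM in control set 2 (rank 221). The protein products of 4 of these genes were part of the sort definition, so their presence describes the sort. Clec4f and Cd5l stood above the other 3 markers in every library. The libraries of Clec1b and Timd4 did not overlap between the sets. Clec1b was higher in control set 1, by 0.91 (SE 0.22, adjusted p = 0.035), and Timd4 differed by -0.81 (SE 0.23, adjusted p = 0.056), which did not pass. The call of Clec1b ended without replicate 4 (adjusted p 0.11). With limma-voom, Clec1b did not pass (adjusted p 0.062). The exons of Clec1b overlap those of Clec9a on the same strand, and how shared reads were assigned is not given in the sources used here.

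The genes for the most abundant markers lie at scattered sites of the genome (mm10, GENCODE M21 positions). Clec4f is on the minus strand of chromosome 6 (83644542 to 83656187), Cd5l on the plus strand of chromosome 3 (87357881 to 87371073) and Apoe on the minus strand of chromosome 7 (19696109 to 19699188). The genes of the 3 C1q chains lie side by side on chromosome 4 on the minus strand, C1qb from 136880129 to 136886187, C1qc from 136889804 to 136893065 and C1qa from 136895917 to 136898803. The 250 bases before the RefSeq start of Clec4f, Cd5l and C1qc are printed below. Clec4f and Cd5l are the most abundant of the 5 Kupffer cell markers. Of the markers and the 30 leading genes, 23 had a window examined, with 26 windows in all. C1qc is shown because its window was the only 1 of these with a match to the motif given next. It was chosen after that match was seen. No window was examined for C1qa, Ly6e, Cd74, Apoc1, Tyrobp, Rps29, Rplp1, Csf1r, Actb and H2-Ab1. Whether these genes have a match is therefore not known. The windows come from RefSeq on GRCm38.p6, at chr6:83656117-83656366 (minus strand), chr3:87357631-87357880 (plus strand) and chr4:136892915-136893164 (minus strand), and read 5′ to 3′ on the strand of the gene. The RefSeq starts differ from the GENCODE ends above, so 71 bases of the Clec4f window and 151 bases of the C1qc window lie inside the gene as GENCODE places it, and 0 bases of the Cd5l window do. Capitals mark a match to GAGGAAGT, a PU.1 type site, on either strand.
Clec4f: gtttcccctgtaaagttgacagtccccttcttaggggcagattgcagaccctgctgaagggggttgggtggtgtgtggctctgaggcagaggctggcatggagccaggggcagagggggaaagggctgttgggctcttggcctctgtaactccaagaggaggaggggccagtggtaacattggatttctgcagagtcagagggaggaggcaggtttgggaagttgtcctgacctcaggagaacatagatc
Cd5l: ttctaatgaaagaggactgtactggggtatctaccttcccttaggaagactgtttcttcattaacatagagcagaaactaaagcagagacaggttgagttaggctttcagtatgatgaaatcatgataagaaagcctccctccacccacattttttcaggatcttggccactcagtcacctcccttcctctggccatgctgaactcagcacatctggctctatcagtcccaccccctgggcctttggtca
C1qc: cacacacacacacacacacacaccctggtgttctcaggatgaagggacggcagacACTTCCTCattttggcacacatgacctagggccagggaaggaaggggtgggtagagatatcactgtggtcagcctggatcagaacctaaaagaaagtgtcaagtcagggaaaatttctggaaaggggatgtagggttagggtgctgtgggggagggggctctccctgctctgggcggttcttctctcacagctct
The match in C1qc begins 195 bases before the RefSeq start and reads ACTTCCTC, the reverse complement. GAGGAAGT was found on either strand in 5 of 92 such windows of the 100 most abundant genes (5.43%, 76 genes with a window examined). It was found in 2.65% of the windows examined for genes of the table and 2.44% of all 32851 windows examined. TATAAA, the TATA box, was found in 9.78% of the windows of the 100 most abundant genes, against 6.79% for genes of the table and 12.4% for all windows. TGACTCA, an AP-1 site, was found in 3.26%, against 3.18% and 4.46%. These are letter matches, with no test, and several windows can belong to the same gene.

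Apoe was the most abundant gene in all 4 libraries. It encodes apolipoprotein E, which carries lipid out of macrophages, and had 32480.1 and 28843 CPM in control set 1 and 46059 and 39917 CPM in control set 2, a mean of 36825 ± 7690.3 CPM (SD, n = 4) or 3.68% of all counts. Apoc1, a smaller apolipoprotein from the same gene cluster, had 7875 and 6805 CPM in control set 1 and 7352 and 6724 CPM in control set 2 (rank 12). Ftl1, the ferritin light chain that stores iron, stood 2nd with 14091 and 8009.6 CPM in control set 1 and 18234 and 15746 CPM in control set 2, and Fth1, the ferritin heavy chain, stood 15th with 6635 and 7254 CPM in control set 1 and 6374 and 6672 CPM in control set 2. Apoe did not overlap between the control sets, Ftl1 was lowest in replicate 2, and Fth1 was nearly level, its highest library holding 1.14 times its lowest. Ferritin light chain and Ly6e are among 4 of the 30 leading genes with pseudogenes named after them, together with Rps29 and Rplp1, and reads shared with such copies make their levels less certain.

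The C1q chains, which form the recognition subunit of the classical complement pathway, were 3 of the 10 leading genes. C1qb had 13933 and 15289.9 CPM in control set 1 and 12795 and 12726 CPM in control set 2 (rank 3). C1qa had 11746 and 12338 CPM in control set 1 and 8535 and 8544 CPM in control set 2 (rank 6). C1qc had 8139 and 8766 CPM in control set 1 and 6976 and 7120.1 CPM in control set 2 (rank 10). The 3 chains kept the same order in each of the 4 libraries, C1qb above C1qa above C1qc. Cfp, which encodes properdin, the stabilizer of the alternative pathway, had 3857 and 4429 CPM in control set 1 and 5854 and 6417 CPM in control set 2 (rank 22). Fcna, a ficolin that recognizes microbial sugars, had 5970.2 and 4479.7 CPM in control set 1 and 4265 and 4149 CPM in control set 2 (rank 25). The 12 genes of the complement list were all in the table, and their sum was 40621 and 43451 CPM in control set 1 and 37022 and 37832 CPM in control set 2, or 3.97% of counts on average.

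**Figure D1:**
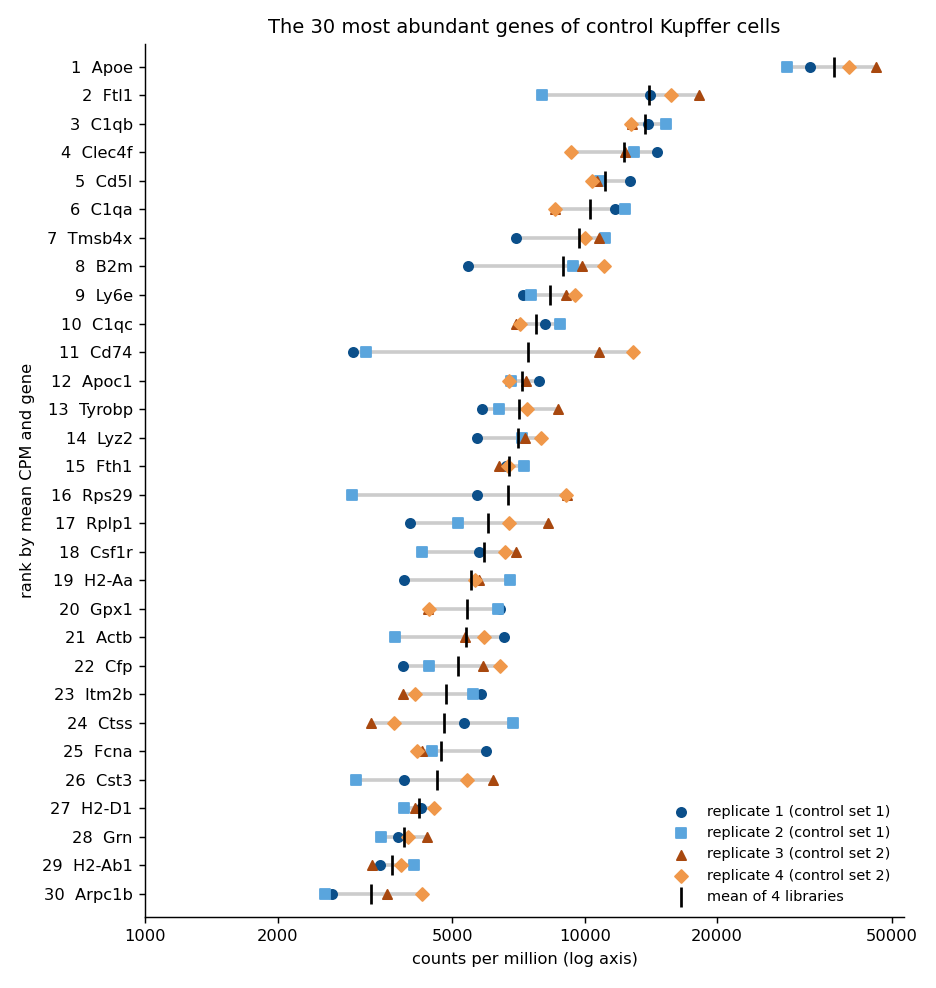
CPM (log axis) of the 30 genes with the highest mean, each point being 1 control library, with the mean marked; replicates 1 and 2 form control set 1 and replicates 3 and 4 form control set 2. Apoe stands alone at a mean of 36825 CPM, the next genes crowd between 14020 and 3257 CPM, and Cd74 shows the widest separation of the control sets.

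Of the 16 genes on the general macrophage list, 8 were among the leading 100. Tyrobp, a signalling adaptor for receptors of myeloid cells, had 5842 and 6391 CPM in control set 1 and 8703 and 7397 CPM in control set 2. Lyz2, lysozyme, had 5679 and 7179 CPM in control set 1 and 7318 and 7946 CPM in control set 2. Csf1r, the receptor for the growth factor on which these cells depend, had 5749 and 4264 CPM in control set 1 and 6971 and 6597 CPM in control set 2. Each of these lay in the leading 30 by its mean, at ranks 13, 14 and 18, and none passed the test between the control sets. Proteolysis and lysosome genes were represented by Ctss, cathepsin S (5308 and 6872 CPM in control set 1 and 3269 and 3682 CPM in control set 2), Cst3, the cathepsin inhibitor cystatin C (3875 and 3021 CPM in control set 1 and 6175 and 5397 CPM in control set 2), and Grn, the progranulin precursor (3762 and 3446 CPM in control set 1 and 4382 and 3951 CPM in control set 2). Neither Ctss nor Cst3 overlapped between the control sets, and of the 2 only Cst3 passed the test, lower in control set 1.

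Antigen presentation genes were also abundant. B2m, the light chain of MHC class I, had 5412 and 9388 CPM in control set 1 and 9868 and 11067 CPM in control set 2 (rank 8), and H2-D1, a class I heavy chain, had 4237 and 3888 CPM in control set 1 and 4105 and 4537 CPM in control set 2 (rank 27). Of the class II genes, H2-Aa had 3879 and 6744 CPM in control set 1 and 5750.4 and 5633 CPM in control set 2 (rank 19) and H2-Ab1 had 3415 and 4089.6 CPM in control set 1 and 3278 and 3809 CPM in control set 2 (rank 29). The libraries of both class II chains overlapped between the control sets. Cd74, the invariant chain that escorts class II molecules, had 2967 and 3170.4 CPM in control set 1 and 10769 and 12868 CPM in control set 2. It ranked 11th by its mean of 7444 ± 5125 CPM (SD, n = 4), but its ranks were 37 and 32 in control set 1 and 5 and 3 in control set 2. The remaining leaders were Tmsb4x, Actb and Arpc1b of the actin cytoskeleton, Ly6e, a surface protein induced by interferon, Gpx1, a peroxidase that protects from oxidants, Itm2b, a membrane protein, and the ribosomal protein genes Rps29 and Rplp1. Tmsb4x, thymosin beta 4, was the highest of them with 6984 and 11102 CPM in control set 1 and 10752 and 10017 CPM in control set 2 (rank 7).

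The 30 leading genes lie on 16 chromosomes. Of these, 5 have exons that overlap those of a gene on the opposite strand and 2 overlap a gene on the same strand. Most neighbours in the order could not be separated. Among the 29 pairs of neighbours in the ranking of the leading 30 genes, Apoe over Ftl1 was the only pair in the same order in all 4 libraries and with a difference of means above the larger SD.

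A small number of genes held most of the messages. The single most abundant gene took 3.25% and 2.88% of counts in control set 1 and 4.61% and 3.99% in control set 2, and the 10 most abundant genes of each library took 13% and 12.5% in control set 1 and 15.0% and 14.1% in control set 2. The 100 most abundant took 36.9% and 36.6% in control set 1 and 42.4% and 42.3% in control set 2. The number of genes needed to reach 50% of counts was 239 and 244 in control set 1 and 166 and 169 in control set 2, a mean of 204.5 ± 42.8 (SD, n = 4). For 90% of counts it was 3105 and 3096 genes in control set 1 and 2572 and 2546 in control set 2. Libraries of control set 2 were more concentrated by each of these measures, without overlap. They were also the shallower libraries, with fewer detected genes, and the part of depth in this was not tested. Of all 10550 genes, 151 had a mean of at least 1000 CPM, 1500 of at least 100 CPM and 6627 of at least 10 CPM, and the median gene stood at 17.5 CPM. A count in every control library was found for 7184 genes, and 8 genes had none in any of them.

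**Figure D2:**
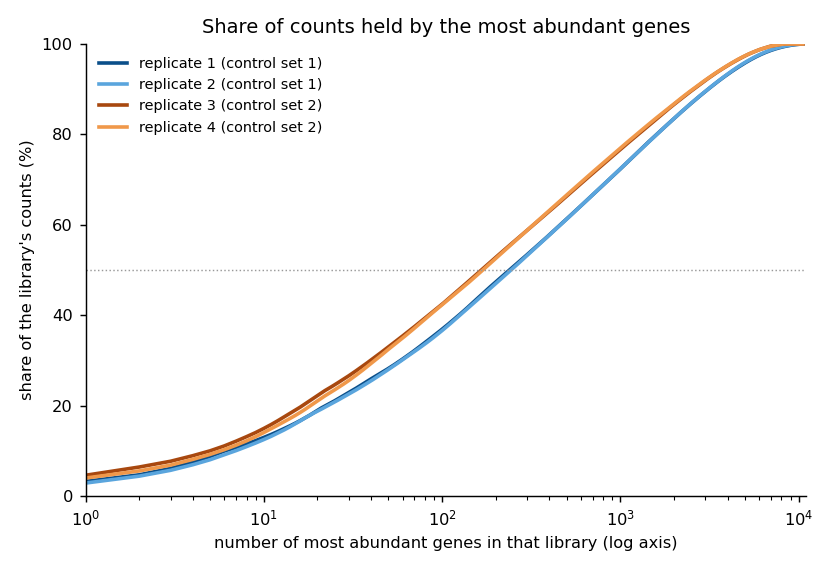
Share of a library's counts (percent) held by its most abundant genes, against the number of those genes (log axis), with 1 line per control library. The lines of replicates 1 and 2 (control set 1) nearly coincide and lie below those of replicates 3 and 4 (control set 2), which reach 50% of counts with 166 and 169 genes.

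The upper end of the ranking was shared by the libraries to a large extent. Of the 10 most abundant genes of each library, 7 were common to all 4, of the 30 most abundant 23, of the 100 most abundant 67, of the 300 most abundant 207 and of the 1000 most abundant 694. Libraries of the same set shared more of their 100 leading genes, 86 in control set 1 and 94 in control set 2, than libraries of different sets, with 76 to 78. Across all genes of the table the Spearman rho between libraries was 0.965 in control set 1, 0.824 in control set 2 and 0.812 to 0.836 between sets. Restricted to the 1000 genes of highest mean, it was 0.908 in control set 1, 0.907 in control set 2 and 0.647 to 0.698 between sets. These correlations run across genes, which are not independent replicates, and libraries share the abundant genes that dominate them. Each pair of libraries differed by more than counting noise, with chi-square per degree of freedom of 15.3 in control set 1, 2.63 in control set 2 and 12.2 to 17.3 between sets, so no pair agreed within sampling noise. That does not show that the libraries came from separate mice. The measure grows with depth and does not rank the pairs.

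Per gene, the spread was moderate for most abundant genes. Among 1313 genes that averaged 100 CPM or more with at least 20 counts in each library, the median ratio of the highest to the lowest library was 1.80. The ratio lay under 1.5 for 374 genes (28.5%), under 2 for 814 (62.0%) and over 4 for 41 (3.12%), with extremes of 1.06 and 29.5. For the same genes the median ratio between libraries of a pair was 1.18 in control set 1, 1.20 in control set 2 and 1.40 to 1.45 between sets. The leading 30 genes had the lowest median ratio of the rank classes looked at, 1.54, against 1.90 for ranks 31 to 100, 1.73 for ranks 101 to 300 and 1.83 for ranks 301 to 1000. This ratio includes counting noise, which grows down the ranking in the shallow control set 2, and its part was not tested. Between the libraries of control set 1 the medians were 1.15, 1.17, 1.20 and 1.17 in the same rank classes. A gene among the leading 30 moved by a median of 8 places between its best and worst library, and one among ranks 31 to 100 by 49.5 places. Levels lie closer together further down the ranking, so a place is a smaller step there.

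**Figure D3:**
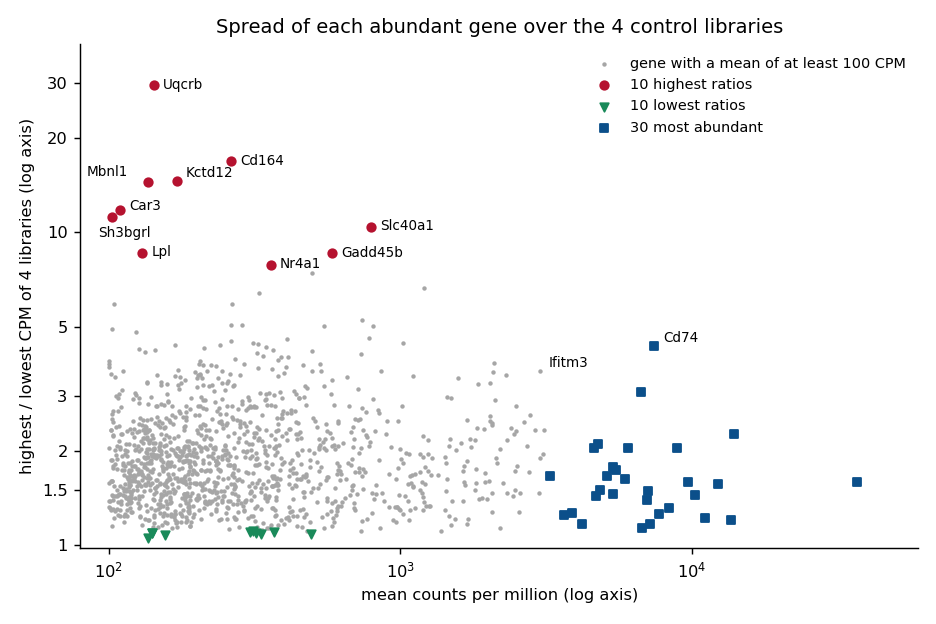
Ratio of the highest to the lowest of 4 control libraries (log axis) against mean CPM (log axis) for 1313 genes that averaged 100 CPM or more and had 20 counts in every library; squares are the 30 most abundant genes, circles the 10 highest and triangles the 10 lowest ratios. Most points lie under a ratio of 2, and the highest, Uqcrb, reaches 29.5.

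The abundant genes with the lowest ratios stood between 136 and 494 CPM on average. By the rule of lowest ratio they were Pik3cd, a lipid kinase subunit of leukocytes, Ddb1, a DNA damage and ubiquitin ligase protein, Srsf5 and Ptbp1, splicing regulators, Lrrc25, a membrane protein of myeloid cells, Myo9b, a myosin, Cdk2ap2, Chmp4b, a membrane remodelling protein, Ephx1, an epoxide hydrolase, and Glud1, glutamate dehydrogenase. Their ratios ran from 1.06 to 1.11. Lrrc25, the most abundant of them, had 481 and 493 CPM in control set 1 and 481 and 523 CPM in control set 2, and Pik3cd had 135 and 142 CPM in control set 1 and 134 and 135 CPM in control set 2. The ratio was the measure by which these genes were picked, so no test is given. The SE expected from counting alone between replicates 3 and 4 had a median of 0.27 on the log2 scale over 1313 abundant genes. Ratios of 1.06 to 1.11 lie within such counting noise. These genes are therefore not shown to be steadier than others.

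The least steady genes were sought among the 1313 abundant genes, which needed a minimum count in every library. That minimum is a far higher CPM in the shallow control set 2 than in control set 1. Genes low in control set 2 could therefore drop out. Cdh5 did so, with a ratio of 9.40 and 28 and 11 counts in control set 2. Within this limit, the least steady genes fell into 2 patterns. In the first, replicate 2 stood far below the other libraries. Uqcrb, a subunit of respiratory complex III, had 89.2 and 8.73 CPM in control set 1 and 217 and 258 CPM in control set 2. Slc40a1, ferroportin, the exporter through which macrophages release iron, had 522 and 123 CPM in control set 1 and 1256 and 1282 CPM in control set 2. Cd164, a sialomucin, had 146 and 27.1 CPM in control set 1 and 459 and 419 CPM in control set 2. Replicate 2 was also the lowest for Kctd12, Mbnl1, an RNA-binding protein, Sh3bgrl and Lpl, lipoprotein lipase. Replicate 1 also lay below both libraries of control set 2 for Uqcrb, Slc40a1, Cd164, Kctd12, Mbnl1 and Lpl. In edgeR over the 4 libraries none of these 7 genes passed the test between the control sets. Without replicate 2, replicate 1 alone stands for control set 1. In that fit Uqcrb, Cd164, Kctd12 and Slc40a1 were lower in control set 1, and Slc40a1 differed by -1.41. These 4 genes passed in DESeq2 over the 4 libraries (adjusted p 0.0035 to 0.032). All 7 genes were picked by their ratio over these same libraries, so such results are not independent of the pick. Across the 1313 abundant genes, 15 in replicate 2 were under 0.5 times the level of every other library, against 6 in replicate 1, 0 in replicate 3 and 7 in replicate 4. Genes very low in replicate 3 or replicate 4 were removed by the count filter before this comparison. These numbers therefore cannot show that replicate 2 held more such genes than the libraries of control set 2. For these 15 genes of replicate 2, the last 500 bases of the longest transcript had a median GC content of 40.4%, against 49.0% over the abundant genes, and the part of base composition in this was not tested. In the second pattern the control sets parted or replicate 4 stood lowest. Car3, carbonic anhydrase 3, had 24.1 and 18.7 CPM in control set 1 and 221 and 176 CPM in control set 2. Gadd45b, a stress-induced gene, had 1121 and 595 CPM in control set 1 and 485 and 131 CPM in control set 2, and Nr4a1, an immediate early nuclear receptor, had 736 and 370.4 CPM in control set 1 and 238 and 93.4 CPM in control set 2.

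**Figure D4:**
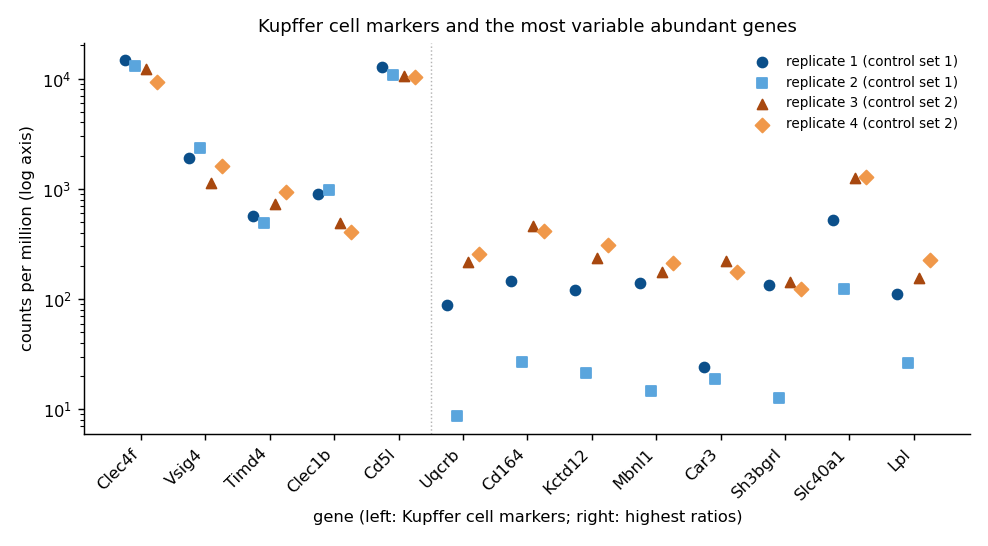
CPM (log axis) in each control library for the 5 Kupffer cell markers and the 8 abundant genes with the highest ratio of highest to lowest library, with a colour and shape per library. The markers keep within 2.39 times their lowest library, while Uqcrb, Cd164, Kctd12, Mbnl1, Sh3bgrl, Slc40a1 and Lpl show replicate 2 below the other 3 libraries.

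The test between the control sets also called several of the most abundant genes. Among the leading 30 genes, 7 passed, all lower in control set 1: Apoe, Cd74, Rps29, Rplp1, Cfp, Cst3 and Arpc1b. Cd74 differed by -2.10 (SE 0.18, adjusted p = 0.00072) and kept its call under all 9 alternative fits and subsets. Apoe differed by -0.64 (SE 0.15, adjusted p = 0.033) and Rps29 by -1.23 (SE 0.27, adjusted p = 0.027). Among the leading 100 genes 43 passed (43%), 34 of them lower in control set 1. Among the leading 1000 genes 230 passed (23%), 134 of them lower. The share was 23.3% in the leading 30, near that of the leading 1000, and 7.05% over all genes tested. Genes near the top of the ranking have more counts behind them, and the part of depth in these larger shares was not tested. Calls in the leading 30 ended without replicate 3 for Apoe, Rps29, Rplp1, Cfp, Cst3 and Arpc1b (adjusted p 0.085 to 0.30) and without replicate 4 for Apoe, Rps29, Rplp1, Cfp, Cst3 and Arpc1b (adjusted p 0.06 to 0.30). With limma-voom, Rps29, Cst3 and Arpc1b did not pass (adjusted p 0.0501 to 0.073). In edgeR over genes with at least 20 counts in every library, Apoe, Cfp and Arpc1b did not pass (adjusted p 0.071 to 0.082).

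Ribosomal protein genes, which encode the structural parts of the ribosome, were lower in control set 1 than in control set 2 as a group. All 81 members were in the table, and they summed to 86437 and 83790.1 CPM in control set 1 and 128586 and 126166 CPM in control set 2, that is 10.6% of counts on average. Of 76 tested, 32 passed (42.1%), 29 of them lower in control set 1 and 3 higher, with a median difference of -0.65 against 0.14 over all genes tested. The share called was 23% in the leading 1000 genes and 43% in the leading 100, which hold 31 of the ribosomal protein genes. Rps18 had 2069.7 and 2368 CPM in control set 1 and 3841 and 4044 CPM in control set 2, a difference of -0.99 (SE 0.18, adjusted p = 0.018), and Rpl41 had 2294 and 2080.4 CPM in control set 1 and 3759 and 3943 CPM in control set 2, a difference of -0.97 (SE 0.18, adjusted p = 0.018). Of 19 translation factors tested, 2 passed, both higher in control set 1. That is 10.5%, against 7.05% of all genes tested and 23% of the leading 1000 genes.  They include 15 of the leading 1000. The 2 that passed were Eef1a1 (1358 and 1349 CPM in control set 1 and 688 and 546 CPM in control set 2) and Tpt1, translationally controlled tumor protein (1222 and 1769 CPM in control set 1 and 688 and 399.9 CPM in control set 2). Respiratory chain genes encoded in the nucleus summed to 20307 and 21386 CPM in control set 1 and 26132 and 28383 CPM in control set 2. Of 75 tested, 17 were lower in control set 1 and 2 higher (25.3% called, near the 23% of the leading 1000 genes). Atp5k, a subunit of ATP synthase, had 247 and 331 CPM in control set 1 and 1299 and 1073 CPM in control set 2, a difference of -2.19 (SE 0.24, adjusted p = 0.0013), and Ndufa2, of complex I, had 456 and 422 CPM in control set 1 and 1113 and 1241 CPM in control set 2, a difference of -1.58 (SE 0.21, adjusted p = 0.0051). The most abundant of the group, Cox6a1, had 940.2 and 1121 CPM in control set 1 and 1576 and 1458 CPM in control set 2 and did not pass. These calls ended without replicate 3 for Rpl41 (adjusted p 0.051) and without replicate 4 for Rps18, Rpl41, Eef1a1 and Tpt1 (adjusted p 0.061 to 0.091). With limma-voom, Tpt1 did not pass (adjusted p 0.066).

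Lysosome genes and proteases summed to 33195 and 33406 CPM in control set 1 and 23469 and 21708 CPM in control set 2, higher in control set 1 without overlap. Of 26 tested, 6 were higher in control set 1 and 1 lower, with a median difference of 0.44. The share called was 26.9%, against 23% of the leading 1000 genes. Ctsd, cathepsin D, had 3998 and 3844 CPM in control set 1 and 2936 and 1716 CPM in control set 2, and Laptm5, a lysosomal membrane protein of leukocytes, had 2851 and 3031 CPM in control set 1 and 2356 and 2067 CPM in control set 2, and neither passed. Iron and heme genes summed to 29418 and 24123 CPM in control set 1 and 36355 and 33279 CPM in control set 2. Of 16 tested, 5 were lower in control set 1 (31.25% called, against 23% of the leading 1000 genes). Slc11a1, the phagosome metal transporter known for its role in resistance to bacteria, had 1445 and 1414 CPM in control set 1 and 1736 and 1955 CPM in control set 2 and did not pass. Cd163, the hemoglobin scavenger receptor, had 579 and 472 CPM in control set 1 and 1061 and 942 CPM in control set 2, a difference of -1.08 (SE 0.22, adjusted p = 0.022). Lipid handling genes summed to 44010.4 and 38672 CPM in control set 1 and 58486 and 52251 CPM in control set 2, most of it Apoe. Of 16 tested, 2 were lower in control set 1 and 1 higher (18.75% called, against 23% of the leading 1000 genes). Pltp, which transfers phospholipid between lipoproteins, had 1325 and 1084 CPM in control set 1 and 3039.7 and 3805 CPM in control set 2, a difference of -1.66 (SE 0.21, adjusted p = 0.0041). Of these, calls ended without replicate 3 for Cd163 (adjusted p 0.058).

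Identity genes other than the 5 markers were all in the table, 15 of 16 of them at a mean of 100 CPM or more, and they summed to 20341 and 19779 CPM in control set 1 and 17099.5 and 18527 CPM in control set 2. Besides Fcna, the most abundant were Folr2, a folate receptor of tissue macrophages (3166 and 3619 CPM in control set 1 and 1676 and 1559 CPM in control set 2), Marco, a scavenger receptor for bacteria (1789.6 and 2738 CPM in control set 1 and 1057 and 2571 CPM in control set 2), and Dmpk, a protein kinase (1459.9 and 1640.1 CPM in control set 1 and 2204 and 2489 CPM in control set 2). Folr2 was higher in control set 1, by 0.91 (SE 0.18, adjusted p = 0.022), and Dmpk lower, with a difference of -0.76 (SE 0.19, adjusted p = 0.041), while the libraries of Marco overlapped. General macrophage genes were all in the table and summed to 36344 and 38701 CPM in control set 1 and 42968 and 41625 CPM in control set 2. Among scavenger and clearance receptors, whose sum was 7129 and 7459.9 CPM in control set 1 and 6391 and 8006 CPM in control set 2, Axl, a receptor for opsonized dying cells, had 1432 and 1090.1 CPM in control set 1 and 922 and 990.5 CPM in control set 2 and Lrp1, an endocytic receptor, had 1008 and 1114 CPM in control set 1 and 896 and 837 CPM in control set 2. Of 14 tested in that group 1 passed (7.14%, against 7.05% of all genes tested and 23% of the leading 1000), lower in control set 1. The identity gene calls ended without replicate 3 for Folr2 and Dmpk (adjusted p 0.057 to 0.098) and without replicate 4 for Folr2 and Dmpk (adjusted p 0.074 to 0.24). With limma-voom, Dmpk did not pass (adjusted p 0.058). In edgeR over genes with at least 20 counts in every library, Dmpk did not pass (adjusted p 0.076).

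Lineage transcription factors, which set the identity of a macrophage, summed to 6779 and 5961 CPM in control set 1 and 4832 and 4085 CPM in control set 2, 0.541% of counts on average. Id3, an inhibitor of helix-loop-helix factors required by Kupffer cells, led with 3136 and 2690.2 CPM in control set 1 and 1537 and 1073 CPM in control set 2 (rank 59) and was higher in control set 1, by 1.01 (SE 0.22, adjusted p = 0.027). Nr1h3, which encodes LXRα, had 792 and 627 CPM in control set 1 and 922 and 859.6 CPM in control set 2 (rank 183), and Spi1, which encodes PU.1, had 685 and 491 CPM in control set 1 and 844 and 871 CPM in control set 2 (rank 206). Neither of these passed, although the libraries of each did not overlap between the sets. Of 18 tested, 2 were higher in control set 1 (11.1%) and 0 lower, against calls for 7.05% of all genes tested and 23% of the leading 1000. The call of Id3 ended without replicate 4 (adjusted p 0.11). With limma-voom, Id3 did not pass (adjusted p 0.0501).

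**Figure D5:**
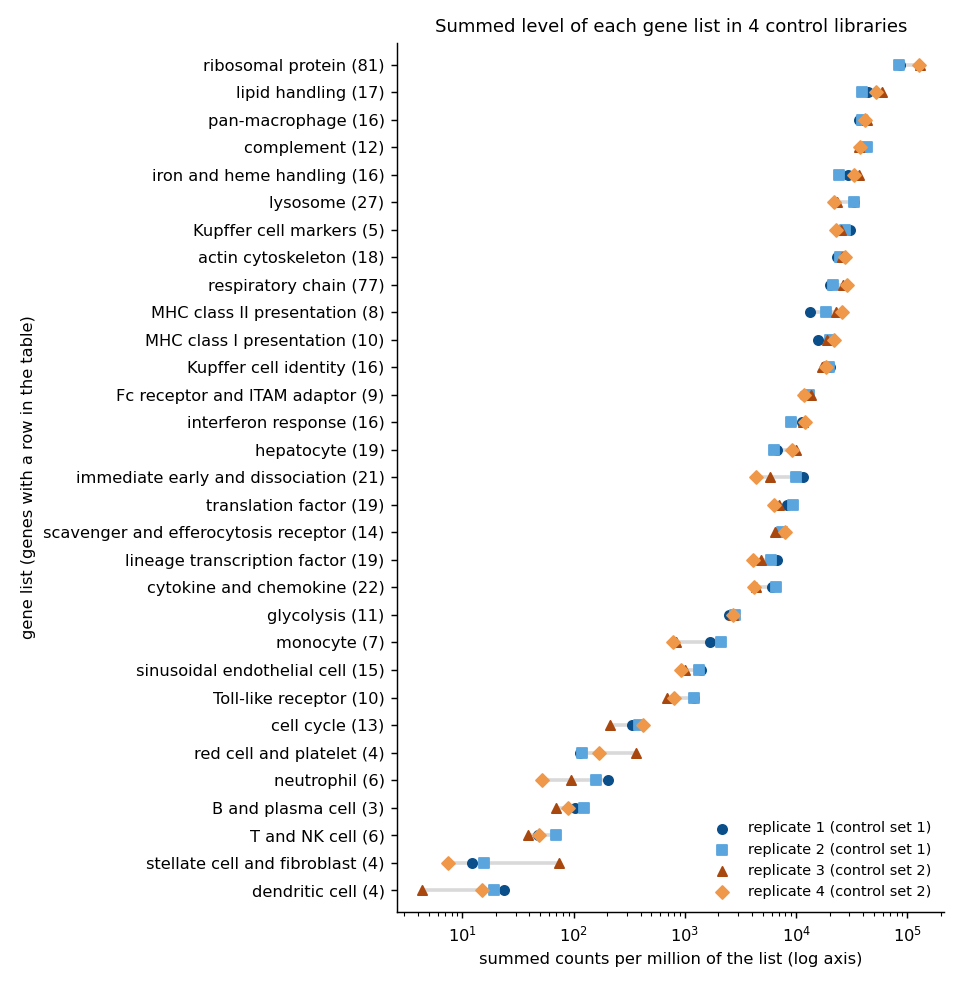
Summed CPM (log axis) of gene lists in each control library ordered by their mean, with the number of genes in the table behind each name; each point is 1 library. Ribosomal protein genes are lower and immediate early and lysosome genes higher in control set 1 (replicates 1 and 2) than in control set 2 (replicates 3 and 4), and lists of other cell types lie below the 3 macrophage lists.

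Immediate early genes, which are known to be induced within minutes of a stimulus and by enzymatic tissue digestion, summed to 11477 and 9869 CPM in control set 1 and 5811 and 4321 CPM in control set 2. Control set 1 was higher without overlap. Of 21 tested, 6 were higher in control set 1 and 0 lower, with a median difference of 1.27. The share called was 28.6%, against 23% of the leading 1000 genes. Nfkbia, an inhibitor of NF-kB, had 2014 and 1169.9 CPM in control set 1 and 684 and 579 CPM in control set 2, a difference of 1.18 (SE 0.27, adjusted p = 0.032). Zfp36, which destabilizes cytokine messages, had 1347 and 863 CPM in control set 1 and 398 and 329 CPM in control set 2, a difference of 1.45 (SE 0.27, adjusted p = 0.018), and Fos, a subunit of AP-1, had 1236 and 826 CPM in control set 1 and 420.0 and 392 CPM in control set 2, a difference of 1.19 (SE 0.25, adjusted p = 0.026). All 3 of these genes were higher in both libraries of control set 1 than in either library of control set 2. Hspa8, a chaperone on the same list, had 723 and 1302 CPM in control set 1 and 1420.3 and 1252 CPM in control set 2 and did not pass. Cytokine and chemokine genes summed to 6039.7 and 6631 CPM in control set 1 and 4391 and 4164 CPM in control set 2. Of 20 tested, 6 were higher in control set 1 and 1 lower (35% called, against 23% of the leading 1000 genes). Ccl6, a chemokine of macrophages, had 1232 and 1612 CPM in control set 1 and 580.2 and 632 CPM in control set 2, a difference of 1.07 (SE 0.22, adjusted p = 0.023). Il1b had 1073 and 1119.7 CPM in control set 1 and 844 and 852 CPM in control set 2 and Ccl24 had 799 and 732 CPM in control set 1 and 792 and 467 CPM in control set 2, and neither passed. These calls ended without replicate 3 for Ccl6 (adjusted p 0.057) and without replicate 4 for Nfkbia (adjusted p 0.062). With limma-voom, Nfkbia, Zfp36, Fos and Ccl6 did not pass (adjusted p 0.061 to 0.11).

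Genes that sense microbes and immune complexes differed widely in level. Toll-like receptors and their partners summed to 1197 and 1196 CPM in control set 1 and 693 and 799.8 CPM in control set 2, with 10 of 13 in the table and 0 of 10 passing. Cd14, a co-receptor for lipopolysaccharide, had 673 and 617 CPM in control set 1 and 389.7 and 422 CPM in control set 2, and Tlr2 had 125 and 137 CPM in control set 1 and 43.3 and 71.0 CPM in control set 2. Fc receptors and their adaptors summed to 11751 and 12961 CPM in control set 1 and 13536 and 11814 CPM in control set 2, and 0 of 9 passed. Interferon response genes summed to 11175 and 8974 CPM in control set 1 and 11418 and 11915 CPM in control set 2. Of 16 tested, 1 was higher and 2 lower in control set 1 (18.75% called, against 23% of the leading 1000 genes). Irf7, a factor that amplifies the interferon response, had 3016 and 2452 CPM in control set 1 and 2386 and 2366 CPM in control set 2, and Ifitm3, a membrane protein that blocks viral entry, had 1831 and 1293 CPM in control set 1 and 4252 and 4661 CPM in control set 2, a difference of -1.67 (SE 0.22, adjusted p = 0.0045). Class II genes as a list summed to 13280.5 and 18715 CPM in control set 1 and 22910.5 and 25849 CPM in control set 2. Of 6 tested, 1 passed, Cd74 (16.7% called, against 23% of the leading 1000 genes). The median difference of the class II list was -0.06, and the libraries of H2-Aa, H2-Ab1 and H2-Eb1 overlapped between the sets. Class I genes summed to 15798 and 19941 CPM in control set 1 and 19009 and 22014 CPM in control set 2. Of 10 tested, 2 were higher and 1 lower in control set 1 (30% called, against 23% of the leading 1000 genes). H2-K1 was among the higher, with 2982 and 3261 CPM in control set 1 and 1507 and 1577 CPM in control set 2. Of these, calls ended without replicate 3 for H2-K1 (adjusted p 0.09) and without replicate 4 for H2-K1 (adjusted p 0.065).

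Housekeeping metabolism and division were also described. Glycolysis genes summed to 2504 and 2794 CPM in control set 1 and 2706 and 2699 CPM in control set 2. They were led by Hk3, a hexokinase of myeloid cells (524 and 656 CPM in control set 1 and 814 and 736 CPM in control set 2). Of 10 tested, 1 passed (10%, against 7.05% of all genes tested and 23% of the leading 1000), lower in control set 1. Actin cytoskeleton genes summed to 23206 and 24705 CPM in control set 1 and 25742 and 27393 CPM in control set 2. Of 18 tested, 1 was higher and 3 lower in control set 1 (22.2% called, near the 23% of the leading 1000 genes). Cell cycle genes were sparse, at a sum of 333 and 389 CPM in control set 1 and 212 and 419 CPM in control set 2, and 0 of 12 tested passed. Pcna, the DNA clamp of replication, had 48.2 and 61.4 CPM in control set 1 and 73.6 and 52.3 CPM in control set 2. None of the cell cycle members reached a mean of 100 CPM.

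Among markers of other cell types, hepatocyte genes held the largest share, and some of them stood high in the ranking. All 19 hepatocyte genes were in the table, 2 of them among the leading 100 and 11 among the leading 1000 genes, and they summed to 6740.4 and 6270.1 CPM in control set 1 and 10059 and 9138 CPM in control set 2, or 0.805% of counts. Trf, transferrin, also on the iron list, had 1801 and 1601 CPM in control set 1 and 2927 and 2258 CPM in control set 2 (rank 57), Alb, albumin, had 1359 and 1288 CPM in control set 1 and 1923 and 2052 CPM in control set 2 (rank 89), and Apoa1, an apolipoprotein of hepatocytes, had 366 and 263 CPM in control set 1 and 1325 and 1286 CPM in control set 2. Of 18 tested, 4 were lower in control set 1 and 1 higher (27.8% called, against 23% of the leading 1000 genes). Apoa1 differed by -2.21 (SE 0.24, adjusted p = 0.0013). Sinusoidal endothelial genes summed to 1399.7 and 1342 CPM in control set 1 and 1005 and 923 CPM in control set 2, all 15 in the table. Of 15 tested, 1 was higher in control set 1 (6.67%) and 0 lower, against calls for 7.05% of all genes tested. The median difference was -0.26, on the other side of 0 from the sum, which was led by Stab2 and Cdh5. Stab2, a scavenger receptor of these endothelial cells, had 498 and 379.8 CPM in control set 1 and 346 and 221 CPM in control set 2, and Cdh5, an endothelial cadherin, had 368 and 387 CPM in control set 1 and 121 and 41.1 CPM in control set 2, a difference of 2.09 (SE 0.39, adjusted p = 0.018). Pecam1, an adhesion protein of endothelium, had 91.8 and 106 CPM in control set 1 and 82.3 and 135 CPM in control set 2, a difference of -0.30 (SE 0.33, adjusted p = 0.59). The part of hepatocyte or endothelial RNA in the differences between the control sets was not tested. Calls in these lists ended without replicate 3 for Trf and Alb (adjusted p 0.12 to 0.28) and without replicate 4 for Trf and Alb (adjusted p 0.077 to 0.22). With limma-voom, Trf and Alb did not pass (adjusted p 0.058 to 0.065). In edgeR over genes with at least 20 counts in every library, Trf and Alb did not pass (adjusted p 0.078 to 0.083). In edgeR without a filter on low counts, Alb did not pass (adjusted p 0.052).

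Blood cell markers were also counted. Monocyte genes summed to 1686 and 2125 CPM in control set 1 and 827 and 789 CPM in control set 2, with 7 of 10 in the table, and nearly all of it came from Plac8, Clec12a and Nr4a1, while the defining monocyte gene Ly6c2 averaged 1.94 CPM and Chil3 2.54 CPM. Chil3 rests on 1 and 6 counts in control set 1 and 1 and 1 in control set 2. Of the 7 monocyte members in the table, 4 had at most 3 counts in both libraries of control set 2. Plac8 had 610.3 and 1023 CPM in control set 1 and 204 and 355 CPM in control set 2, a difference of 1.38 (SE 0.33, adjusted p = 0.034), and was the only 1 of 3 tested that passed. The call of Plac8 ended without replicate 3 (adjusted p 0.09). With limma-voom, Plac8 did not pass (adjusted p 0.10). Neutrophil genes, with 6 of 11 in the table, summed to 203 and 157 CPM in control set 1 and 95.3 and 52.3 CPM in control set 2, led by Mmp9 at a mean of 56.2 CPM and Csf3r at 52.4 CPM, while S100a8 averaged 3.91 CPM. T and NK cell genes summed to 48.0 and 68.9 CPM in control set 1 and 39.0 and 48.6 CPM in control set 2, with 6 of 13 in the table, led by Ccl5 at a mean of 33.7 CPM. B and plasma cell genes summed to 102 and 124 CPM in control set 1 and 69.3 and 89.7 CPM in control set 2, with 3 of 8 in the table, led by Cd79b at 82.7 CPM. Dendritic cell genes, with 4 of 8 in the table, summed to 23.4 and 19.3 CPM in control set 1 and 4.33 and 15.0 CPM in control set 2. Of the 19 members of these last 4 lists in the table, 14 had at most 3 counts in both libraries of control set 2, too few to measure there.

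Stellate cell and fibroblast genes summed to 12.2 and 15.6 CPM in control set 1 and 73.6 and 7.48 CPM in control set 2, with 4 of 10 in the table. The high value was that of replicate 3, in which Des, desmin, had 15 counts. Red cell and platelet genes, with 4 of 8 in the table, summed to 114 and 118 CPM in control set 1 and 359 and 168 CPM in control set 2. Pf4, platelet factor 4, made up most of it with 105 and 97.6 CPM in control set 1 and 338 and 161 CPM in control set 2, a difference of -1.44 (SE 0.34, adjusted p = 0.033). The part of cells of these types in the differences between the sets was not tested. The call of Pf4 ended without replicate 3 (adjusted p 0.15). With limma-voom, Pf4 did not pass (adjusted p 0.071).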

How the data were processed

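The authors deposited a table of 10550 genes with raw counts per library, corrected by UMI per the table's name, and a normalized signal per library that, from the values, equals the count divided by a single factor per library and was not used further. The submitters' processing notes name cutadapt, HTSeq, DESeq2 and the build mm10. Aligner, strand setting and treatment of shared reads are not given there or in the labels. Columns of per-sample values left unmatched numbered 0.

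CPM used the totals of the table. Ranks follow the mean CPM over the 4 control libraries with equal weight. The control sets were compared in edgeR 4.0.16 (R 4.3.3) by its quasi-likelihood test (TMM, default expression filter, robust shrinkage), with Benjamini-Hochberg adjustment over 8002 genes and calls at an adjusted p under 0.05. DESeq2 1.42.0 and limma 3.58.1 (voom) were alternatives, with other scalings, filters and each library left out. The edgeR step was tested on simulated data. Control libraries were grouped by genotype label and title, and the 3 Commd10-deficient libraries were not used.

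Named genes are the 5 markers, the 30 with the highest mean, up to 4 members of each of 31 lists by mean CPM, and the 10 with the lowest and highest ratio. Ly6c2 and Rpl37a were added after their values were seen. The members and lists were chosen with earlier results of these data known. Sequences are from RefSeq (GRCm38.p6) and gene positions from GENCODE M21.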

Additional observations from a re-analysis of the deposited data

Results flagged for a closer look

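Among 173 values examined over the 4 libraries, 9 had a single library set far apart from the other 3 by the gap relative to the whole range. Chance alone sets about 1 in 20 such values apart, so 9 of 173 is about the number that chance would give. The cases below are listed as descriptions, and Des enters both alone and within its list. Of the 9, 5 were in replicate 2, 3 in replicate 3 and 1 in replicate 1.

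Replicate 2 was highest for Clec12a, an inhibitory lectin of myeloid cells, at 724 CPM, against 332 to 377 CPM in the other libraries. It was also highest for Fcer1g, the common gamma chain of Fc receptors, at 2667 CPM, against 1820 to 1885 CPM. For Pik3cd and Cdk2ap2, both among the genes with the lowest ratios, replicate 2 was highest at 142 CPM and 342 CPM, against 134 to 135 CPM and 312 to 315 CPM. Differences this small lie within counting noise. Sh3bgrl was lowest in replicate 2 at 12.8 CPM, against 123 to 143 CPM.

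Replicate 3 was highest for Des, desmin of stellate and muscle cells, at 65.0 CPM, against 3.43 to 7.48 CPM. It was also highest for Itga2b, an integrin of platelets, at 17.3 CPM, against 0 to 2.81 CPM, a level that rests on few counts. The summed stellate cell and fibroblast list reached 73.6 CPM in replicate 3, against 7.48 to 15.6 CPM, most of it Des. Irf7 was highest in replicate 1 at 3016 CPM, against 2366 to 2452 CPM.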

How the results depend on the processing

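The genes of the 30 most abundant changed little with the processing: 27 to 30 of them were kept, with Arpc1b, Ctss, H2-Ab1, Cd74, Rps29 or Rplp1 leaving under at least 1 setting. The median ratio of highest to lowest library was 1.80, and 1.59 to 1.66 with any 3 libraries, as fewer libraries give a smaller range by construction. It was 1.73 over genes of at least 500 CPM. Calls between the control sets numbered 564 in edgeR, 182 with limma-voom and 460 to 895 when single libraries were left out, with 468 without replicate 2, 895 without replicate 3 and 794 without replicate 4. DESeq2 made 621 calls, edgeR with DESeq2 size factors 549, without a filter on low counts 807, and with at least 20 counts in every library 406. Leaving a set with 1 library assumes that it varies like the other set. The share of calls higher in control set 1 was 45.0%, 34.6% with limma-voom and 56.9% without a filter. Of 34 named genes called, 8 were called under every alternative that tested them, 17 were lost with limma-voom, 17 without replicate 3 and 19 without replicate 4. Mean levels of 20 of 138 named genes moved by over 1 SD with totals that left out ribosomal protein genes. Other scalings moved the median gene by -0.0044 and -0.0080 on the log2 scale. Depth limits control set 2, where 3 counts are 13 and 11.2 CPM. No paired analysis was possible because replicate numbers only name the libraries in record order.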

Other observations

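Mir682 was chosen after its values were seen and lies outside the naming rule. The row of this name, which denotes a microRNA precursor, had 207 and 125 CPM in control set 1 and 927 and 729 CPM in control set 2, rank 298 by its mean. It was lower in control set 1, with a difference of -2.47 (SE 0.29, adjusted p = 0.0028) in edgeR. A polyadenylated 3′ tag library does not measure mature microRNA. The RefSeq hairpin matched a transcript of Rpl37a, a ribosomal protein gene, in 95 of 96 bases (99%), and the mature sequence occurred without mismatch in Rpl37a and in several predicted genes. Rpl37a itself had 1619.6 and 1438 CPM in control set 1 and 2741 and 2706 CPM in control set 2, a difference of -0.99 (SE 0.19, adjusted p = 0.018). Both rows were lower in control set 1, and how reads shared by the 2 loci were assigned is not given in the sources used here. The mature sequence, shown because it is the stretch both loci hold, is from RefSeq on GRCm38.p6 at chr13:75645119-75645139 on the plus strand, with the seed (bases 2 to 8) in capitals.
mmu-miR-682: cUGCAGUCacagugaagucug

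Base composition was tabulated beside the ratios. The 10 abundant genes with the highest ratio had a median GC content of 36.0% in the last 500 bases of their longest transcript, against 50.5% in the 10 with the lowest ratio and 49.0% over the abundant genes. The count filter could leave out genes low in control set 2, so the 10 highest ratios could lean to genes low in control set 1. Across 1312 abundant genes, the Spearman rho of GC content was -0.24 with the log2 ratio of replicate 2 to replicate 1, -0.03 with that of replicate 4 to replicate 3 and -0.16 with that of control set 1 to control set 2. The 2 within-set values are descriptions across genes, and each pair shares the same gene set and annotation.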
